A study of Mus musculus with 6 samples.

Results

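The genes of the nuclear pore and of the receptors that carry cargo through it were examined in polysome-bound RNA of murine leukaemia cells of the T-cell acute lymphoblastic kind (T-ALL). Members were taken by symbol: Nup followed by a number or l, Ipo, Xpo, Kpna, Kpnb and Tnpo genes, and Ranbp2, Rae1, Seh1l, Sec13, Aaas, Ndc1, Cse1l and Ran. This gave 53 of the 19937 genes with a probe set of their own. The set was proposed with the differences between these arrays known, so its counts describe it and are not independent support for a direction. Values also entered the choice of probe set: where a gene had several probe sets, the one with the highest mean log2 signal over the 6 arrays was kept. Nup35, Tpr and Nutf2 belong to the same set by name, had no probe set listed under their symbol and were not analysed here. The mean log2 signal of the kept probe sets ran from 4.40 for Nup62cl to 12.27 for Cse1l, with a median of 10.40.

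The cells were T-ALL clone #483, strain C57BL6, a single clone. A group of 3 samples received 100 µM 4EGI-1 for 2 h, a compound that keeps eIF4E, which binds the mRNA cap, from joining eIF4G in the translation initiation complex, and the other 3 served as controls. The control titles read untreated, whereas the series title and treatment text name DMSO, so whether controls received solvent is not settled. The design text calls the replicates biological, and RNA of the pooled polysome fractions of each sample went to 1 array. No total RNA was measured here, so a change in the amount of an mRNA and a change in its loading on ribosomes cannot be told apart, nor can fewer cells and less RNA per cell. Values are relative within an array.

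Nuclear pores are rings of nucleoporins set into the nuclear envelope. Large scaffold proteins form the outer and inner rings, nucleoporins with phenylalanine-glycine (FG) repeats fill the channel, and further proteins form filaments on the cytoplasmic side and a basket on the nuclear side. Importins and exportins pass through the FG repeats with their cargo, and the small GTPase Ran sets the direction by loading exportins and unloading importins in the nucleus. Dividing leukaemia cells have to build new pores in every cell cycle, and human T-ALL can carry fusions of NUP214 or NUP98.

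Median log2 signal of the 6 arrays was 6.38 to 6.43 over 34760 probe sets. Arrays of one group correlated at 0.996 to 0.997 across genes and arrays of different groups at 0.988 to 0.990. Of the T-lineage markers 9 were measured, with control log2 signals of 6.90 for Cd5 to 12.47 for Thy1 and a median of 11.77; 4 of them fell with 4EGI-1 and 1, Rag1, rose. Markers of B cells (4 measured), myeloid cells (5), erythroid cells (1) and stromal and endothelial cells (4) had control signals with a median of 6.38, from 4.33 for Ms4a1 to 8.995 for Pecam1, and 0 of these 14 passed the limma test at an adjusted p under 0.05, with 1, Epor, at an unadjusted p under 0.05.

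Most changes among these genes were increases. Of the 53 members, 22 rose with 4EGI-1, 5 fell and 26 did not pass (limma across all genes, Benjamini-Hochberg adjusted p under 0.05). Over all genes 22.9% passed, 11.5% upward and 11.5% downward, against 41.5% and 9.43% of the members. Of the 53, 51 lay at or above the median signal of all probe sets, and of the 11059 genes at or above it 17.3% were higher and 18.9% lower. The median log2 difference (4EGI-1 minus control) was 0.10 for the members and -0.03 for all genes. It was 0.06 without 4EGI-1 replicate 3. In 34 members the control and treated arrays were fully separated, 25 upward and 9 downward, and over all genes the share was 37.9% (17.0% upward and 20.8% downward). Of the members that passed, 14 changed by at least 1.5-fold and 4 by at least 2-fold, while 5.29% and 0.903% of all genes passed at these sizes. Nucleoporins and transport receptors both took part: 13 of 28 nucleoporins rose and 2 fell, and 9 of 24 receptors rose and 3 fell.

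**Figure D1:**
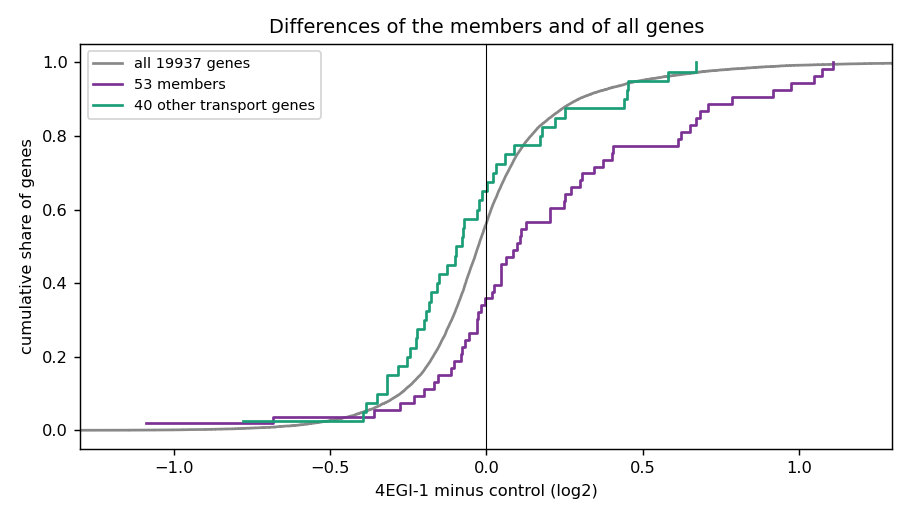
Cumulative share of genes (vertical axis) by log2 difference, 4EGI-1 minus control (horizontal axis), for all 19937 genes, the 53 members and 40 other genes of nuclear transport. The curve of the members lies to the right of that of all genes from -0.1 to 1.11, the highest difference of a member.

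Start-site sequences are shown for members at the ends of the response and for Ran, since 4EGI-1 acts on the cap-binding complex and an mRNA begins at this point. RefSeq windows on GRCm38.p6, 250 bases before to 50 from the annotated start, matched 43 of the 53 members. Each line holds 60 bases before the start in lower case and the first 15 transcribed bases in capitals, 5′ to 3′ on the strand of the gene. Annotated starts are not measured in these samples.
Nup205 (rose), chr6:35177556-35177630, plus strand: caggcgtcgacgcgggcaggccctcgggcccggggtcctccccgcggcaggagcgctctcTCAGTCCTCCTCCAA
Nup188 (rose), chr2:30286356-30286430, plus strand: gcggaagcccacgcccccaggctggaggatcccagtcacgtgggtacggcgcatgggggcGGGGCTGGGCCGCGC
Nup133 (rose), chr8:123949251-123949325, minus strand: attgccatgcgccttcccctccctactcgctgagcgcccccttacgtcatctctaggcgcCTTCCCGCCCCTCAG
Xpo5 (rose), chr17:46202751-46202825, plus strand: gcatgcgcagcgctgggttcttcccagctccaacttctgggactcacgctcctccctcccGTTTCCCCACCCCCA
Kpna2 (fell), chr11:106999511-106999585, minus strand: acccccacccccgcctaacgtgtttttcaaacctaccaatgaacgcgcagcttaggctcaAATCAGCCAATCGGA
Nup37 (fell), start 1 of 2, chr10:88146932-88147006, plus strand: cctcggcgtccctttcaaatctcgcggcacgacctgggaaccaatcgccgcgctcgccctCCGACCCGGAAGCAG
Nup37 (fell), start 2 of 2, chr10:88147011-88147085, plus strand: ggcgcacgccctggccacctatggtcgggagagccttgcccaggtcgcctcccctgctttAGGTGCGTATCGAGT
Ran (did not pass), chr5:129020096-129020170, plus strand: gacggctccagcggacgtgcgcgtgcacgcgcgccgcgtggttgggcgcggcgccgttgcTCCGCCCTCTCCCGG

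The windows were GC-rich, with a median of 62.7% G and C in members and 57.5% in the 15613 measured genes with a window. A start of the terminal oligopyrimidine kind, a C followed by 4 bases that are each C or T, was found in 2 of 43 members, Nup133 (the capitals above) and Ipo7, and in 2.75% of all genes. Both rose. On either strand of the window, the E-box CACGTG was present in 9 of 43 members (20.9%; 9.50% of all genes), at base -24 before the start of Nup188 among others. CCAAT was present in 21 members (48.8%; 41.7% of all genes), including both Kpna2 (base -25 and base 7) and Nup37. The ETS core CCGGAAG was found in 9 members (20.9%; 13.6%), including Nup37 at base 6 from its first start, and the NRF1 site in 7 (16.3%; 7.85%), including Xpo5 and Ran. The core TGATGNAA of CHOP-ATF4 composite sites was matched in 0 of 43 members and in 3.62% of all genes. Matches describe letters in these windows, and the listed motifs were not tested against the response.

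The outer ring, or Y complex, is the coat-like scaffold on both faces of the pore, and its mRNAs moved in opposite directions. Of 8 members placed in this group 3 rose (37.5%), 2 fell (25%) and 3 did not pass, with a median log2 difference of 0.04. Among all genes 11.5% passed in each direction, and at or above the median signal 17.3% were higher and 18.9% lower. The count that fell is thus near the background. At an adjusted p under 0.01 (limma) 3 of the 8 were higher and 1 lower. Nup133 forms the stem end of the Y. Its log2 signal was 8.98, 9.13 and 9.13 in controls and 10.06, 9.94 and 10.16 with 4EGI-1, so every treated array lay above every control. It rose by 0.97 ± 0.08 (SE), or 1.96-fold (adjusted p = 0.000132). Nup160, at the arm of the complex, had control values of 10.43, 10.50 and 10.49 and treated values of 11.17, 11.07 and 11.14, again without overlap. It rose by 0.65 ± 0.06 (adjusted p = 0.000229), and Nup107, the partner of Nup133 in the stem, by 0.67 ± 0.06 (adjusted p = 0.000238).

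The other members placed in this group fell or did not pass. Nup98, whose mRNA also encodes the scaffold protein Nup96, and Ahctf1 (ELYS) were counted in other groups. Each of them rose, with log2 differences of 0.79 and 0.45. Nup37, which sits on Nup160, had log2 signals of 9.55, 9.38 and 9.35 in controls and 8.63, 8.71 and 8.88 with 4EGI-1. All treated arrays were below all controls, and it fell to 0.623 times its control level, a log2 difference of -0.68 ± 0.09 (SE; adjusted p = 0.000934). Seh1l, which is shared with the GATOR2 complex of amino acid signalling, fell by 0.28 ± 0.06 (adjusted p = 0.012). Differences were 0.11 for Nup43, -0.03 for Sec13, which is also a COPII coat protein, and -0.11 for Nup85, the partner of Seh1l; none of these 3 passed. Thus mRNAs whose proteins assemble into 1 complex differed by up to 1.66 on the log2 scale in their response, a range given as a description and not tested.

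In the inner ring every measured member rose, 4 of 4, with a median log2 difference of 0.88. The share that rose was 11.5% over all genes and 17.3% among genes at or above the median signal. Nup205, a large scaffold protein, had control log2 signals of 9.21, 9.32 and 9.35 and treated signals of 10.46, 10.39 and 10.36. The groups were more than 1 unit apart at their nearest values, and the difference was 1.11 ± 0.07 (SE), or 2.16-fold (adjusted p = 5.34e-05). Its paralog Nup188, with which it shares binding to Nup93, was at 8.57, 8.51 and 8.75 in controls and 9.69, 9.64 and 9.65 with 4EGI-1. It rose 2.07-fold, by 1.05 ± 0.07 (adjusted p = 8.26e-05), and no treated array overlapped the controls. Nup155, which contacts the membrane, rose by 0.71 ± 0.06 (adjusted p = 0.000196). Nup93, the organiser of the ring, rose least, by 0.31 ± 0.07 (adjusted p = 0.0149). Its call was lost without control replicate 1 (adjusted p = 0.0539), control replicate 2 (0.056) or 4EGI-1 replicate 1 (0.0507).

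**Figure D2:**
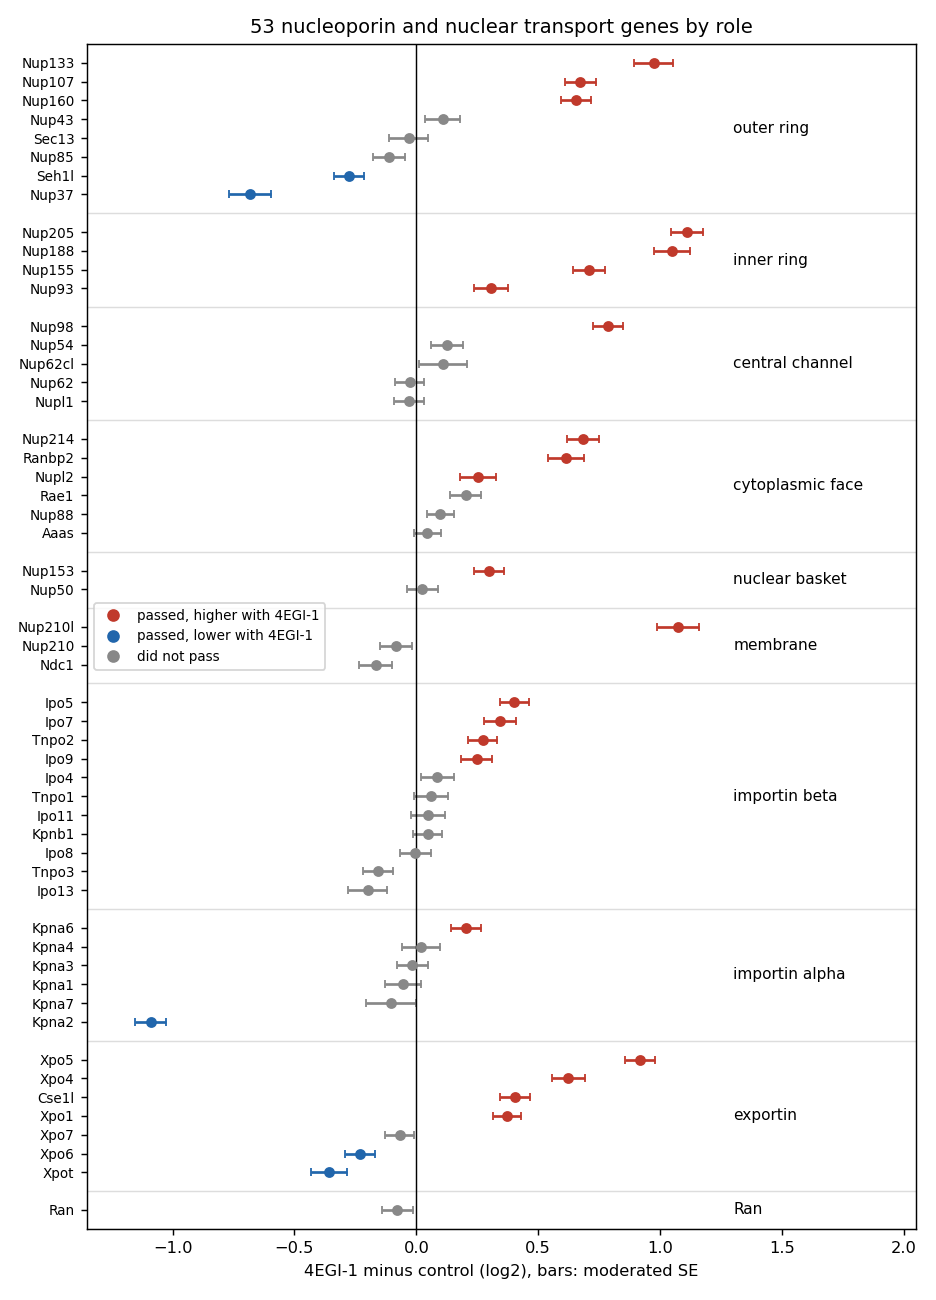
Log2 difference, 4EGI-1 minus control (horizontal axis), of each of the 53 members, grouped by role; points are fitted differences and bars the moderated standard error, coloured by whether the limma test passed and in which direction. All 4 inner ring genes lie at 0.31 or above, the outer ring spans -0.68 to 0.97, and Kpna2 at -1.09 is the lowest point.

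In the central channel the large precursor rose and the channel trimer did not pass. Nup98, whose mRNA encodes both the FG nucleoporin Nup98 and the scaffold protein Nup96, had control log2 signals of 10.06, 10.08 and 10.09 and treated signals of 10.93, 10.80 and 10.86. All treated arrays lay above the tightly grouped controls, giving a rise of 0.79 ± 0.06 (SE), or 1.73-fold (adjusted p = 0.000117). Nup62, Nup54 and Nupl1 (the human gene is NUP58) form the FG trimer of the channel. Their differences were -0.03 (95% interval -0.16 to 0.11), 0.13 (-0.03 to 0.28) and -0.03 (-0.17 to 0.11), so changes of the size seen for Nup98 lie outside their intervals. Nup62cl, a paralog of Nup62, had a low signal of 4.34 ± 0.14 (SD) in controls and differed by 0.11. Nup62 overlaps the stress transcription factor gene Atf5, which did not pass either (-0.23, adjusted p = 0.0628) and was read from a probe set of its own.

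All 6 genes of the cytoplasmic face had treated values above control values in every array, but 3 passed. The background for such separation upward is the 17.0% given above. For passing upward it is 11.5% of all genes and 17.3% of those at or above the median signal. Nup214 binds Xpo1 and the mRNA export helicase. Its signals were 10.18 in each control array and 10.91, 10.77 and 10.92 with 4EGI-1, and it rose by 0.68 ± 0.07 (SE; 1.60-fold, adjusted p = 0.00025). Ranbp2, the giant filament protein with Ran-binding domains and SUMO ligase activity, was at 10.13, 10.13 and 10.01 in controls and 10.70, 10.60 and 10.80 after treatment. It rose by 0.61 ± 0.07 (1.53-fold, adjusted p = 0.000715). Neither filament gene had any overlap between the groups. Nupl2 (human NUP42), which binds the export factor Gle1, rose by 0.25 ± 0.07 (adjusted p = 0.039). That call was lost on leaving out any 1 array, with adjusted p of 0.0665, 0.115 and 0.0531 without control replicate 1, 2 and 3 and of 0.112, 0.0699 and 0.0798 without 4EGI-1 replicate 1, 2 and 3. Rae1, a partner of Nup98 in mRNA export, differed by 0.20 ± 0.06 (adjusted p = 0.0509), Nup88, which anchors Nup214, by 0.10 and the aladin gene Aaas by 0.05.

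Nuclear basket and membrane members gave 1 increase each, of 2 and of 3 genes. These are too few to set against the 11.5% of all genes that rose. Nup153, a basket protein with FG repeats, was at 10.80, 10.74 and 10.83 in controls and 11.09, 11.03 and 11.13 with 4EGI-1. It rose by 0.30 ± 0.06 (SE; 1.23-fold, adjusted p = 0.00918) without overlap, whereas Nup50, its partner in the basket and a cofactor of importin alpha, differed by 0.02 (95% interval -0.12 to 0.17). The membrane nucleoporin genes Nup210 and Ndc1 differed by -0.08 and -0.17 and did not pass. Nup210l, a paralog of Nup210 known from germ cells, had control signals of 7.29, 7.32 and 7.47 and treated signals of 8.55, 8.45 and 8.30. Every treated array was higher, and the difference was 1.07 ± 0.08, or 2.10-fold (adjusted p = 0.000119).

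Members with several probe sets allow the same gene to be read again from probe sets that the choice left out. Nup210l had 9. All were higher with 4EGI-1 and passed when every probe set was tested, with log2 differences of 0.47 to 1.39. Kpna2 had 3 probe sets, with differences of -1.09, -1.23 and -0.68, all of which passed. They are annotated with the same accessions, and a pseudogene copy, Kpna2-ps, exists in RefSeq, so which copy each probe set reads is uncertain. The 2 probe sets of Rae1 differed by 0.20 and 0.12 and did not pass in that test (adjusted p = 0.0842 and 0.255). Direction was therefore shared by the probe sets of each of these 3 genes.

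**Figure D3:**
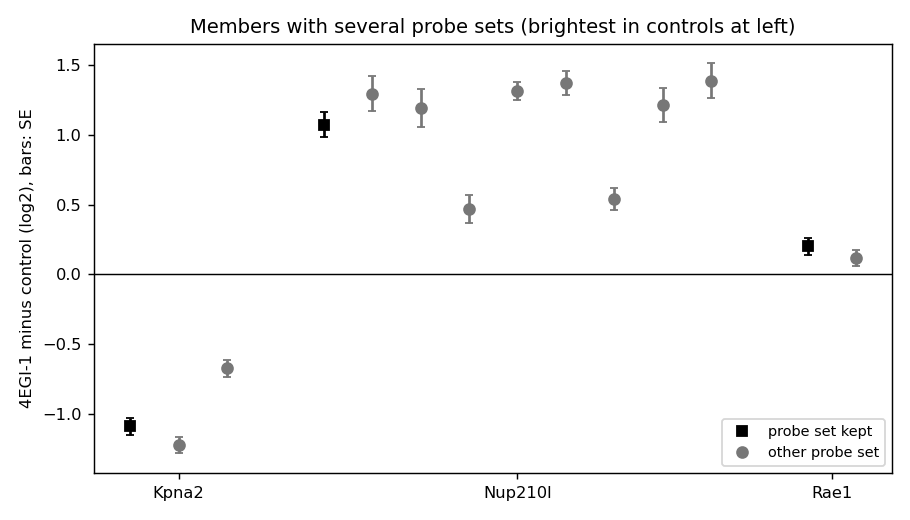
Log2 difference, 4EGI-1 minus control (vertical axis), of every probe set of Kpna2, Nup210l and Rae1; squares are the probe sets kept, circles the others, and bars the moderated standard error. The 3 probe sets of Kpna2 lie between -1.23 and -0.68 and the 9 of Nup210l between 0.47 and 1.39.

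Import receptors of the importin beta family bind cargo, or cargo on an adaptor, in the cytoplasm and release it on meeting Ran in the nucleus. Of 11, 4 rose (36.4%), 0 fell and 7 did not pass the limma test (median 0.06). The background was 11.5% in each direction, and 17.3% higher and 18.9% lower at or above the median signal. At an adjusted p under 0.01, 2 of the 11 were higher and 0 lower. At an unadjusted p under 0.05, 4 were higher and 2 lower, as were 3088 and 3516 of all 19937 genes. Kpnb1, the general receptor importin beta, was at 11.78, 11.71 and 11.79 in controls and 11.83, 11.78 and 11.81 with 4EGI-1. These values overlapped, and the difference was 0.05 ± 0.06 (SE; adjusted p = 0.65, 95% interval -0.09 to 0.18). Ipo5, which imports ribosomal proteins and histones, was at 10.89, 10.89 and 10.95 in controls and 11.34, 11.27 and 11.32 with treatment. It rose by 0.40 ± 0.06 (1.32-fold, adjusted p = 0.00184), with all treated arrays above all controls. Ipo7, another importer of ribosomal proteins and of histone H1, went from 11.30, 11.41 and 11.39 to 11.69, 11.65 and 11.78, a rise of 0.34 ± 0.07 (adjusted p = 0.00625) and again without overlap.

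Smaller differences were seen in the other importins of this family, of which 2 passed. Tnpo2, a transportin for RNA-binding proteins, rose by 0.27 ± 0.06 (SE; adjusted p = 0.0114), while its paralog Tnpo1 differed by 0.06 (95% interval -0.10 to 0.22). Ipo9, an importer of histones H2A and H2B, rose by 0.25 ± 0.06 (adjusted p = 0.0232). Its call was lost without control replicate 1 (adjusted p = 0.0654), control replicate 2 (0.081), 4EGI-1 replicate 1 (0.0555) or 4EGI-1 replicate 3 (0.0769). Ipo8, the paralog of Ipo7, differed by less than 0.01 in size (95% interval -0.15 to 0.14). Differences were 0.09 for Ipo4, 0.05 for Ipo11, -0.16 for Tnpo3, the importer of SR splicing factors, and -0.20 for Ipo13, which carries cargo both ways. The last 2 are those at an unadjusted p under 0.05 that were lower. Paralogs were not tested against each other.

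Importin alpha proteins are the adaptors that read the classical nuclear localisation signal for importin beta, and Kpna2 among them had the largest decrease of the 53 members. Its log2 signal was 12.32, 12.22 and 12.28 in controls and 11.15, 11.24 and 11.16 with 4EGI-1, so all treated arrays lay far below all controls. The difference was -1.09 ± 0.06 (SE), which is 0.47 times the control level (adjusted p = 4.95e-05). Kpna6 was at 9.81, 9.81 and 9.72 in controls and 10.00, 9.94 and 10.02 after treatment, a rise of 0.20 ± 0.06 with an adjusted p of 0.0472. Without control replicate 1, 2 and 3 that adjusted p was 0.0793, 0.0896 and 0.154, and without 4EGI-1 replicate 1, 2 and 3 it was 0.114, 0.0627 and 0.133, so the call was lost on leaving out any 1 array. Kpna1, Kpna3 and Kpna4 differed by -0.06, -0.02 and 0.02 with overlapping groups, and Kpna7, at a low control signal of 5.76 ± 0.15 (SD, n = 3), by -0.10. The 6 adaptors thus held 1 increase, 1 decrease and 4 that missed the threshold, or 16.7% in each direction. Over all genes the share was 11.5% in each direction. Among genes at or above the median signal it was 17.3% higher and 18.9% lower, so these counts were near the background.

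Exportins bind cargo together with Ran in the nucleus and release both in the cytoplasm. Of 7, 4 rose (57.1%), 2 fell (28.6%) and 1 did not pass (median 0.37). The background was 11.5% in each direction over all genes. At or above the median signal it was 17.3% higher and 18.9% lower, and the 2 decreases are too few to be set apart from it. Xpo5, the export receptor of microRNA precursors, was at 9.16, 9.18 and 9.25 in controls and 10.15, 10.06 and 10.15 with 4EGI-1. It rose by 0.92 ± 0.06 (SE), or 1.89-fold (adjusted p = 7.43e-05), with the groups wide apart. Xpo4, whose cargo includes the translation factor eIF5A, went from 10.48, 10.56 and 10.64 to 11.20, 11.14 and 11.21 and rose by 0.62 ± 0.07 (1.54-fold, adjusted p = 0.000401). All 3 treated arrays were higher than the controls here too.

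Xpo1, or CRM1, exports proteins with a leucine-rich export signal and certain RNAs. It was at 11.54, 11.55 and 11.51 in controls and 11.94, 11.89 and 11.88 with treatment, a rise of 0.37 ± 0.06 (SE; 1.29-fold, adjusted p = 0.00232). Cse1l, which returns importin alpha to the cytoplasm, was at 12.04, 12.02 and 12.13 in controls and 12.47, 12.42 and 12.51 with 4EGI-1. It rose by 0.40 ± 0.06 (1.32-fold, adjusted p = 0.00228), opposite in direction to its cargo Kpna2. The tRNA exporter Xpot fell by 0.36 ± 0.08 (adjusted p = 0.00979) and Xpo6, the exporter of actin with profilin, by 0.23 ± 0.06 (adjusted p = 0.0283). The call of Xpo6 was lost without control replicate 1 (adjusted p = 0.0817), 2 (0.080) or 3 (0.0621) and without 4EGI-1 replicate 1 (0.0601) or 3 (0.0971). Xpo7 differed by -0.07. Ran itself, for which RefSeq also lists a Ran-like copy that may share probes, was at 12.10, 12.14 and 12.03 in controls and 11.99, 12.07 and 11.98 with 4EGI-1, which overlap, a difference of -0.08 ± 0.06 (adjusted p = 0.458, 95% interval -0.22 to 0.07).

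**Figure D4:**
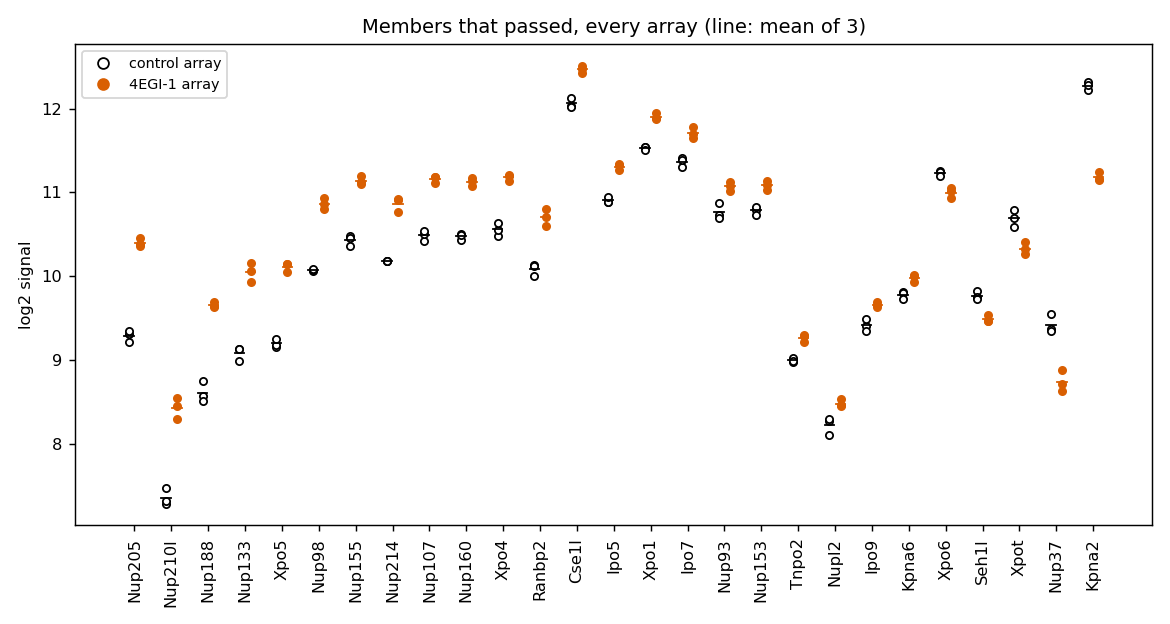
Log2 signal (vertical axis) of the 27 members that passed, in each of the 3 control arrays (open circles) and 3 4EGI-1 arrays (filled circles), with the mean of each group as a line and genes ordered by difference. The groups overlap in 0 of these 27 genes, which is not further support, since nearly all genes that passed are separated. Over all genes 4573 passed, and 2983 of the 7551 separated genes did not. The order runs from Nup205, 1.11 higher, to Kpna2, 1.09 lower.

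Nucleoporins are often named after the approximate mass of the protein in kilodaltons, and members with a larger number mostly had a larger difference here. Among the 18 members named Nup and a number alone, the 11 with a number of 93 to 214 had a median log2 difference of 0.68, and 10 of them rose; the exception was Nup210. The 7 with a number of 37 to 88 had a median of 0.02: 0 rose, 1 (Nup37) fell and 6 did not pass the limma test, with 0 higher and 1 lower at an unadjusted p under 0.05. The background was 11.5% in each direction over all genes, and 17.3% higher and 18.9% lower at or above the median signal. The 1 decrease among 7 (14.3%) was near it. The dividing point was chosen after the values were seen, and no test was made. Across these 18 genes the number correlated with the difference at Pearson r = 0.63 and Spearman rho = 0.61, and at r = 0.55 and rho = 0.52 without the lowest and the highest number. All points come from the same 6 arrays, genes are not independent replicates, and the number correlated with the mean signal at r = -0.31. The mass in a name is not that of the whole product for Nup98, whose precursor also holds Nup96.

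**Figure D5:**
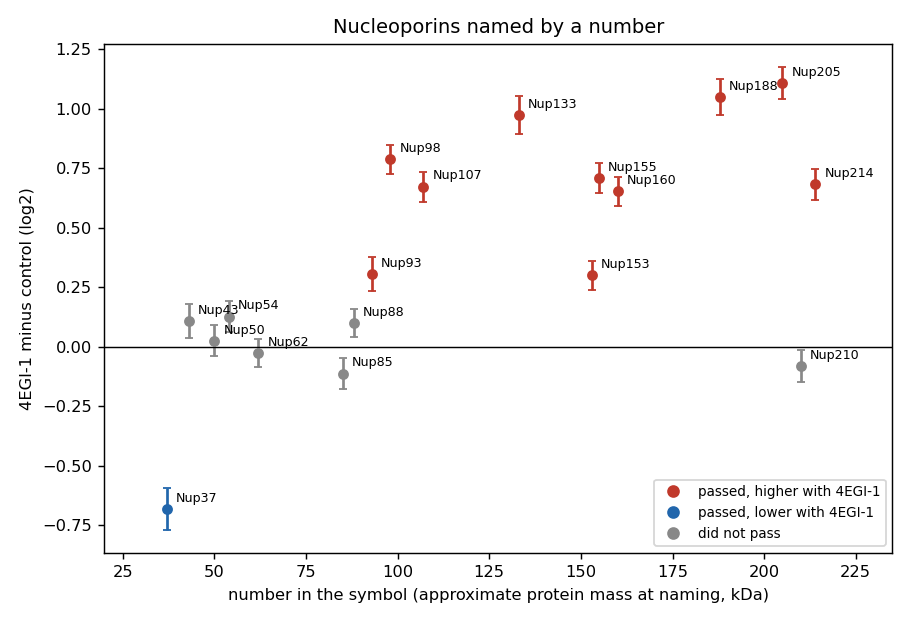
Log2 difference, 4EGI-1 minus control (vertical axis), against the number in the symbol (horizontal axis) for 18 nucleoporins; points are fitted differences and bars the moderated standard error, coloured by the result of the limma test. The 10 genes that rose have numbers of 93 to 214, and Nup37, the lowest number, fell.

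Genes of nuclear transport outside these families changed in both directions. A list of 44 had 40 genes with a probe set: 7 rose, 10 fell and 23 missed the threshold, at a background of 11.5% in each direction over all genes, and of 17.3% higher and 18.9% lower among genes at or above the median signal. The median log2 difference was -0.09. The number that fell was 6 without 4EGI-1 replicate 3. At an adjusted p under 0.01 the list had 5 higher and 3 lower, where 7.46% of all genes were higher and 6.26% lower. The list consists of other pore proteins, the Ran cycle, other receptors and adaptors, and mRNA export factors. Ranbp6, a relative of Ipo5, rose from 8.26 ± 0.05 to 8.93 ± 0.10 (SD, n = 3 each), by 0.67 ± 0.07 (SE; adjusted p = 0.000414). Ahctf1, or ELYS, which seeds pores on chromatin after mitosis, rose by 0.45 ± 0.07 (adjusted p = 0.00194). The 8 Ran cycle genes, among them the nucleotide exchange factor Rcc1 (-0.07), the GTPase activator Rangap1 (-0.01) and Ranbp1 (-0.18, adjusted p = 0.0502), gave 0 higher and 0 lower in limma, and 1 lower at an unadjusted p under 0.05.

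Among 20 messenger RNA export factors 3 were higher and 8 lower, against 11.5% of all genes in each direction, and the other 9 did not reach the threshold. All 20 lay at or above the median signal, where 17.3% of genes were higher and 18.9% lower. At an adjusted p under 0.01, 2 of the 20 were higher and 3 lower. The median log2 difference of the 20 was -0.20. The 8 lower became 5 without control replicate 1, 2 or 3 and 4 without 4EGI-1 replicate 3, where Nxf1, Thoc3, Thoc7 and Eny2 lost their calls. Cetn2, a centrin that is also part of the pore-bound TREX-2 complex, fell from 8.87 ± 0.08 to 8.09 ± 0.10 (SD, n = 3 each), by 0.78 ± 0.08 (SE; adjusted p = 0.00028). Mcm3ap, or GANP, the large scaffold of TREX-2, rose by 0.58 ± 0.08 (adjusted p = 0.00123), and Thoc2, the large scaffold of the THO complex, by 0.44 ± 0.06 (adjusted p = 0.00174). Nxt2, a small partner of the export receptor Nxf1, fell by 0.38 ± 0.06 (adjusted p = 0.00282). Nxf1 itself, named after its value was seen, fell by 0.28 ± 0.07 (adjusted p = 0.0171; its adjusted p was 0.0548 on leaving out control replicate 1 and 0.0602 on leaving out 4EGI-1 replicate 3). Cetn2 and Mcm3ap of TREX-2 thus changed in opposite directions, a difference that was not tested.

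The 26 members that did not pass had log2 differences of -0.20 to 0.20, and in 7 of them (26.9%) the groups were separated, 3 upward and 4 downward, where the share among all genes that did not pass was 19.4%. Genes that overlap a member in RefSeq can share its signal where strand or exons are not resolved, and of those with a probe set of their own none passed (limma), the nearest being Atf5 beside Nup62.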

How the data were processed

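Polysomal RNA of 3 control and 3 4EGI-1 samples was hybridised to 1 array each. The authors deposited log2 signals for each probe set, for which the submitters' processing notes name RMA; its version and settings are not stated in the labels. Of 34760 probe sets, the platform annotation lists 22961, 21640 with 1 symbol, 1321 with several and 11799 not listed; 21553 of those with 1 symbol matched RefSeq (GRCm38.p6) by Entrez identifier and took its current symbol. For each gene the brightest probe set over the 6 arrays was kept, giving 19937 genes.

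Differences were fitted with limma 3.58.1 (lmFit, eBayes) in R 4.3.3, without a signal filter, and p-values were adjusted over all genes by Benjamini-Hochberg. The moderated test had 8.15 degrees of freedom, 4.15 of them from the prior. Scripts were tested on simulated data. The median SE of a difference was 0.0781, and precision is limited by having 3 arrays a group. Detection calls were not used. The smallest median absolute difference of 2 arrays of a group was 0.0927, so none was counted as a repeat.

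Members and lists were chosen with earlier results of these data known. Every member is accounted for. Array values are given for up to 2 passing members with the smallest adjusted p per role, for Ran, Kpnb1, Kpna2, Xpo1, Cse1l, Nup98, Nup153 and Ranbp2 (Nutf2 and Tpr were on this list and not analysed), and for Nup37, added after its value was seen. Up to 6 other transport genes with the smallest adjusted p are named; others were named after their values were seen. Alternatives were a replicate block, filters on signal, other probe set rules, other normalizations, a trended robust prior, array weights, a stricter threshold and leaving out each array.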

Additional observations from a re-analysis of the deposited data

How the results depend on the processing

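Of the 27 members that passed, 22 kept their call under each of 15 alternative settings besides the stricter threshold. Ipo9, Kpna6, Nup93, Nupl2 and Xpo6 lost it in some, and 4 others (Ipo13, Ndc1, Rae1 and Tnpo3) passed in some. A change of sign was counted only where a member passed in the main or the alternative fit, and there were 0. Some members that passed in neither changed sign, such as Nup62 (-0.03, and 0.02 with quantile normalization). Leaving out genes under the median signal gave 8 members lower in place of 5 and 23 higher in place of 22. Calls also became more frequent over the 11059 genes tested in this way. Of these 25.4% were lower and 21.2% higher, against 11.5% in each direction in the main fit. At an adjusted p under 0.01, 17 members were higher and 3 lower. Of the other transport genes 5 were higher in place of 7 and 3 lower in place of 10, so the larger number of decreases there was not kept. Over all genes 7.46% were higher and 6.26% lower at this threshold, and such small counts give no direction. Leaving out 1 array at a time gave 18 to 20 members higher and 4 to 5 lower. It gave 5 to 6 other transport genes higher and 6 to 8 lower, and a median difference of the members of 0.06 to 0.12. Calls over all genes also fell in these fits, to 9.31% to 10.4% higher and 8.34% to 9.21% lower. The labels do not say whether a replicate number marks a shared culture, day or batch, so samples were not paired in the main fit. Deviations of same-numbered samples correlated at 0.06, 0.11 and -0.02, and those of differently numbered samples at -0.11 to 0.06. With 3 arrays a group these values do not settle whether the numbers pair the samples. With the replicate number as a block 20 members were higher and 5 lower, Kpna6 and Nupl2 no longer passing. In that fit 10.5% of all genes were higher and 9.9% lower. The rank correlation of symbol number and difference, a result added after seeing the data, was 0.59 to 0.63 over the alternatives. The median difference of all genes was -0.03 to -0.01 over the settings. With 3 arrays a group and no detection calls, small changes and dim probe sets such as those of Nup62cl and Kpna7 are measured least well.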
